A study of Mus musculus with 12 samples.

Results

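Expression of 38 genes of endoplasmic reticulum protein folding and of the unfolded protein response was compared between heat stress and control mice in liver and in brain. The members were taken by name, as chaperones, degradation factors, stress sensors and their targets. The list was drawn up with earlier results of these data known, so its counts and medians are not independent of the data. All 38 were among the 25239 genes of the count table. They were read in 5 groups by role: 18 chaperones and folding enzymes, 7 genes of degradation at the endoplasmic reticulum, 4 stress sensors or their direct products, 5 genes of the ATF4 arm, and 4 genes of protein translocation and transport. All mice were male C57BL/6J wild-type animals of 24 months. The heat stress group was kept at 40 ± 0.5 °C and 60% ± 5% relative humidity for 3 hours a day over 15 days, and the other mice served as control. The temperature of the control room and the hour of tissue collection are not given in the sources used here. Each group had 3 mice, each tissue of a mouse gave 1 library of messenger RNA, and the 12 libraries held between 10466198 and 15609040 counted reads. The animal identity of a liver library and a brain library with the same number is not stated in the sources used here.

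Proteins that enter the endoplasmic reticulum pass the Sec61 channel, are folded by Hspa5 (BiP), Hsp90b1 (Grp94), calreticulin, calnexin and the protein disulfide isomerases, and leave in vesicles or, when folding fails, are drawn back to the cytosol and degraded. The sensors Ern1 (IRE1), Atf6 and Eif2ak3 (PERK) lie in its membrane and respond to unfolded protein. Active Atf6 and the spliced form of Xbp1 raise transcription of chaperone and degradation genes, many of them through promoter elements called ERSE, whereas Eif2ak3 and other kinases of eIF2α favour translation of the factor ATF4, which acts on genes of amino acid supply and stress. Hepatocytes secrete much of the plasma protein and are rich in this machinery.

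Heat stress was set against control separately in liver and in brain, with the quasi-likelihood test of edgeR over all genes that passed a filter on low counts, and values below are CPM, read counts scaled to the library total with TMM factors within the tissue. In liver 12 of 18 chaperones were lower at an unadjusted p under 0.05 and none was higher, while 3 of 5 genes of the ATF4 arm were higher and none was lower. Among all 38 members in liver 15 were lower and 4 higher at that level. Over all 12296 genes tested in liver, 2.87% were lower and 2.97% higher in the same sense. The groups did not overlap for 18 members with lower and 4 with higher values in heat stress, where 5.73% and 5.38% of all genes were so separated. After Benjamini-Hochberg adjustment over all genes, 0 members and 0% of genes passed 0.05 in edgeR, and the lowest adjusted p of a member was 0.0599, for Creld2. DESeq2 on the same counts called 11 members, 10 lower and 1 higher, where it called 0.553% of genes. The median log2 fold change of the 38 members was -0.34, against 0.011 for all genes tested. With 3 mice against 3, an exact permutation test of 1 gene cannot give a p under 0.1, so single genes rest on the model's shared estimate of spread. In bulk RNA of either tissue, fewer cells of a type and less RNA of a gene per cell cannot be told apart.

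**Figure D1:**
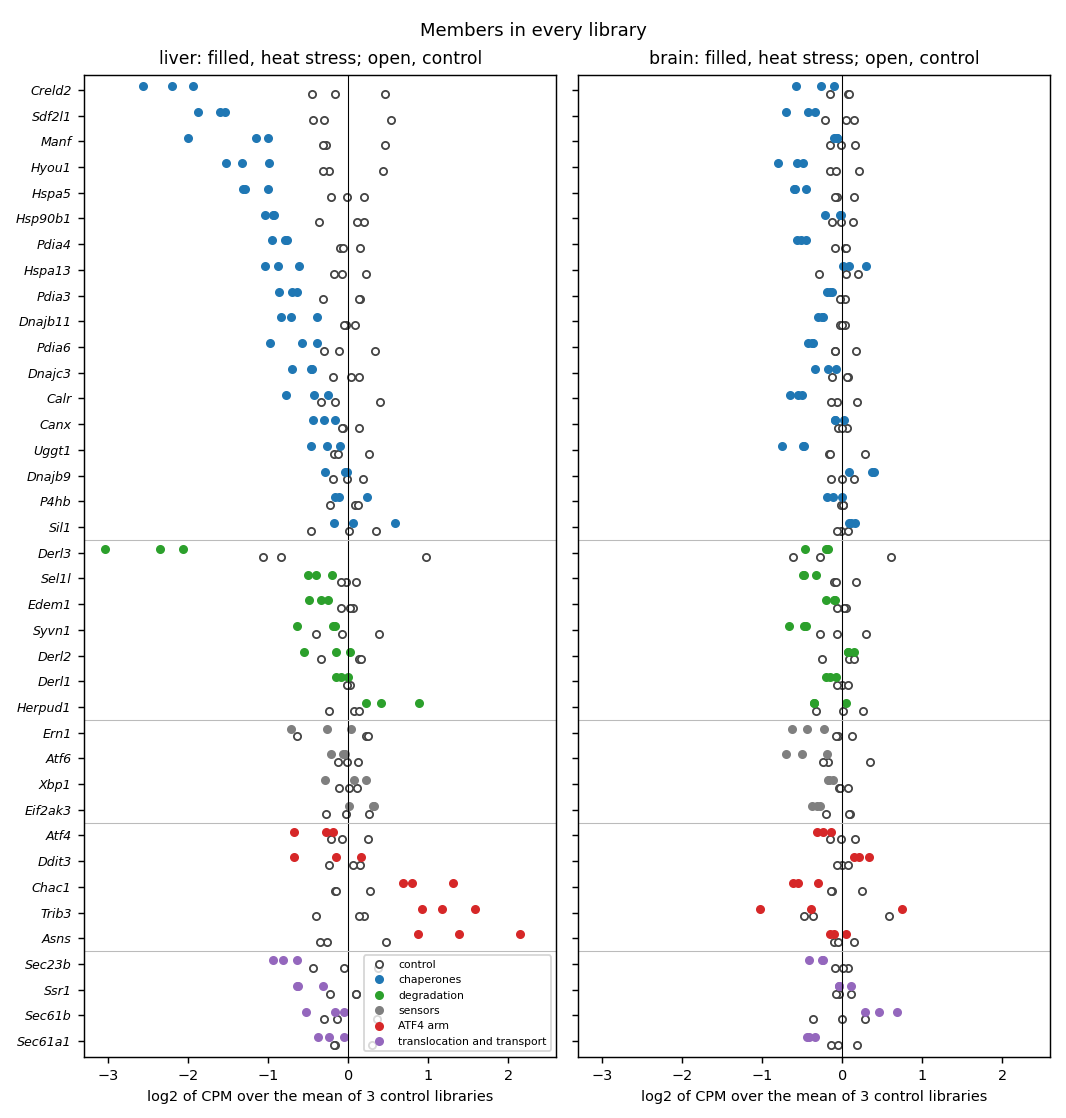
Each row is a member and each point a library, placed at the log2 of its CPM over the mean of the 3 control libraries of that tissue, for liver on the left and brain on the right. Filled points are heat stress, coloured by role, and open points are control. In liver 18 members have all filled points left of the open ones and 4, Herpud1, Trib3, Chac1 and Asns, have them to the right. Brain values of Derl3 and Trib3 rest on 4 to 16 reads.

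In brain 36 members could be tested, 15 of them lower and 2 higher at an unadjusted p under 0.05, with a median log2 fold change of -0.22 against -0.0030 for all genes. That tissue had many more such genes in all, 10.05% of 14806 lower and 10.00% higher, so the share of members has to be read against a higher background than in liver. Groups without overlap were seen for 19 of the tested members with lower values and 2 with higher ones, against 11.98% and 12.9% of genes. In edgeR 0 members and 0% of genes passed an adjusted p of 0.05, while DESeq2 called 6 members, Hspa5, Calr, Hyou1, Pdia4, Uggt1 and Sel1l, all lower, and 4.66% of genes.

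Summed over the 18 chaperones, liver held 7220, 7390 and 7299 CPM in the control mice and 4507, 4640.3 and 5426 in the heat stress mice. Every heat stress library lay below every control library, at 0.665 of the control mean. The largest parts came from P4hb, Hsp90b1 and Hspa5, with control means of 1534, 1440 and 1042 CPM against 1531, 737 and 455 in heat stress. In brain the same sum was 2442, 2561 and 2389 in control and 2175, 2060 and 2026 under heat stress, which was 0.847 of control and again without overlap. The sums of the other roles in liver were near the control level for degradation genes (ratio 1.01) and sensors (0.994, to which Xbp1 gave the most CPM). The sum for translocation and transport was lower (0.778). Without Herpud1 the degradation ratio was 0.837 with groups apart. Herpud1 was left out with its higher liver value known, so that ratio is no independent result. The sum of the ATF4 arm, to which Atf4 itself gave the most CPM, was 153, 186 and 138 CPM in liver control against 148, 114 and 159.7 in heat stress, a ratio of 0.883 with overlapping groups, although 3 of its 5 genes were higher. In brain the degradation and sensor sums were at 0.822 and 0.811 of control, with groups apart in both, and those of the ATF4 arm and of translocation and transport at 0.916 and 0.956, with overlap.

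Promoter sequences are shown for members of 2 sets, because those with the element ERSE and those with a site for ATF4 had opposite directions in liver. Sequences are RefSeq promoter windows on GRCm38.p6, which were at hand for 31 of the 38 members and run from 250 bases before to 50 bases after a gene's start. Printed are the 250 bases before the start in 5′ to 3′ direction of the gene, with the match in capitals. In the first set the capitals mark ERSE, which was searched as CCAAT, then any 9 bases, then CCACG, on both strands, so that a match on the other strand appears as CGTGG, 9 bases and ATTGG. Hspa5 (chr2:34771840-34772089, + strand) carried it 65 bases before its start, Creld2 (chr15:88819396-88819645, + strand) 126 and Derl3 (chr10:75893148-75893397, + strand) 156 bases before, and Hsp90b1 (chr10:86705445-86705694, - strand) carried it at 212 and again at 107 bases before.
Hspa5: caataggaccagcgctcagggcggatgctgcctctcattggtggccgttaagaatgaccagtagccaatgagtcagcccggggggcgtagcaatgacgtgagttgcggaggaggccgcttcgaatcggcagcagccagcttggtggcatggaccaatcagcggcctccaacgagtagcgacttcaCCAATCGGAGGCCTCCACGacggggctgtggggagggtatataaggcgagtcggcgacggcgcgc
Hsp90b1: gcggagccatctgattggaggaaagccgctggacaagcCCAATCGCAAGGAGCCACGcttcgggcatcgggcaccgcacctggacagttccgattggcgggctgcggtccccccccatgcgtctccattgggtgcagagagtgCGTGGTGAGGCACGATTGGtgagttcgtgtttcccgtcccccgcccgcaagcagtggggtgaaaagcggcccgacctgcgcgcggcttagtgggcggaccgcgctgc
Creld2: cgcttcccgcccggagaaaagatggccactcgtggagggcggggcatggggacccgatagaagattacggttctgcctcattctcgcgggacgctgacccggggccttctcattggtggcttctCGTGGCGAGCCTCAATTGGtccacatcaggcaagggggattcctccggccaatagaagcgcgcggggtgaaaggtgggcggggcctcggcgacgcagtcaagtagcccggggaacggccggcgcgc
Derl3: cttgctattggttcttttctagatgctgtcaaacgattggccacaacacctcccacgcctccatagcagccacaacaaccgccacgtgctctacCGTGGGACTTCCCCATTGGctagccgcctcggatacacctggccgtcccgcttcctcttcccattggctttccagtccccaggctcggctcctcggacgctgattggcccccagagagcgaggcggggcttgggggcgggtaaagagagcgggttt

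In the second set the capitals mark the composite site read by ATF4 and C/EBP factors, searched as TGATGNAA on both strands. It lay 193 bases before the start of Chac1 (chr2:119350992-119351241, + strand), 23 bases before that of Asns (chr6:7693210-7693459, - strand) and 112 bases before that of Herpud1 (chr8:94386179-94386428, + strand). In Herpud1 the capitals nearer to the start mark ERSE-II, searched as ATTGG, any base, CCACG, at 52 bases before the start. The match of Trib3 began at base 15 after the start, so only 30 bases around it are shown (chr2:152344028-152344057, - strand).
Chac1: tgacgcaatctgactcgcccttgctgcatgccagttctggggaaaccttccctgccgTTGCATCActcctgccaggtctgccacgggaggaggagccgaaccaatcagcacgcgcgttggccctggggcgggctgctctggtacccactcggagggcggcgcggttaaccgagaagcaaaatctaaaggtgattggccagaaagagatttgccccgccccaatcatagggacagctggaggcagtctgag
Asns: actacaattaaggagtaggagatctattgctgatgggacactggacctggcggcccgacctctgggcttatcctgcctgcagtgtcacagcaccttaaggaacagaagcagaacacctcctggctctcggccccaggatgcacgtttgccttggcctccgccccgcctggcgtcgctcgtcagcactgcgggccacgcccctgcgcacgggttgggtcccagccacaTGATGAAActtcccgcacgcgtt
Herpud1: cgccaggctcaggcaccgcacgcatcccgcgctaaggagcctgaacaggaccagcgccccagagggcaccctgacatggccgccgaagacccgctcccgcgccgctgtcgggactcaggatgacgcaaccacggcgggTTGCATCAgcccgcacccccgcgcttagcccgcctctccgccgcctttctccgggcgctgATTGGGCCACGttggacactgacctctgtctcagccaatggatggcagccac
Trib3: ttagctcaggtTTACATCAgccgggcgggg

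ERSE was found in the windows of 37 of 27025 genes (0.137%) and in 9 of the 31 members: Hspa5, Hsp90b1, Pdia6, Creld2, Calr, Canx, Dnajc3, Derl3 and Syvn1. ERSE-II was found in 12 genes (0.0444%), among them Dnajb11 and Herpud1, and as both forms end in CCACG their matches can share those bases. The short end CCACG alone, which both ERSE forms contain, stood in 35.5% of all windows and in 23 members. The element TGACGTGG, known as UPRE, stood in 0.714% of windows and in 0 members. The ATF4 composite site was in 1219 genes (4.51%) and in 4 members, Herpud1, Trib3, Chac1 and Asns. These are matches of letters, and binding was not measured.

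The chaperones with the lowest liver values relative to control were Creld2, Sdf2l1, Manf, Hyou1 and Hspa5. Hspa5, the Hsp70 of the endoplasmic reticulum that also holds the sensors inactive, stood in liver at 1031, 1198 and 897 CPM in control and at 421, 426 and 518 in heat stress. The highest heat stress library reached 518 and the lowest control library 897. Its log2 fold change was -1.20 ± 0.20 (unadjusted p = 0.000157, adjusted p = 0.132), given here and below with its SE, and DESeq2 gave an adjusted p of 1.36e-07. In brain the same gene read 269.7, 311 and 263 in control and 205, 186 and 187 under heat stress, also apart, with a log2 fold change of -0.55 ± 0.12 (unadjusted p = 0.00128, adjusted p = 0.170). The brain value passed adjustment with DESeq2 (0.00639).

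Creld2, a small secreted protein of the lumen that is induced when folding fails, showed the lowest liver value of the chaperones relative to control, at 58.0, 89.4 and 47.3 CPM in control mice and 14.1, 10.9 and 16.9 in heat stress mice. The control mean was 4.64 times the heat stress mean, with a log2 fold change of -2.21 ± 0.27 (unadjusted p = 9.74e-06, adjusted p = 0.0599). In brain it read 13.6, 13.7 and 11.7 in control against 8.68, 10.7 and 12.1 in heat stress, and the groups overlapped, with a log2 fold change of -0.31 ± 0.17 (unadjusted p = 0.105, adjusted p = 0.336). The effect in liver minus that in brain was -1.92 ± 0.32 (unadjusted p = 4.24e-05, adjusted p = 0.168) in an edgeR fit over all 12 libraries, and DESeq2 put the adjusted p of that difference at 0.000566.

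Sdf2l1, a cofactor in the cycle of BiP, read 46.5, 82.9 and 42.2 in liver control and 19.7, 15.6 and 18.8 in liver heat stress, a log2 fold change of -1.67 ± 0.26 (unadjusted p = 9.27e-05, adjusted p = 0.132). In brain it was lower too, from 8.71, 10.4 and 11.2 to 7.94, 6.18 and 7.46, at -0.49 ± 0.18 (unadjusted p = 0.0263, adjusted p = 0.205). Neither tissue showed an overlap of its groups. Manf, a secreted factor retained by BiP, read 140.1, 234 and 137 in liver control and 76.7, 42.6 and 84.9 in heat stress, at -1.33 ± 0.30 (unadjusted p = 0.00137, adjusted p = 0.408). Its brain levels were close together, 34.2, 42.4 and 37.8 against 35.4, 36.3 and 36.5, at -0.081 ± 0.11 (unadjusted p = 0.499, adjusted p = 0.714).

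Hyou1, the large Hsp70-like exchange factor of BiP, was apart in both tissues. In liver it read 185, 116 and 109.6 against 47.6, 54.6 and 68.8, at -1.27 ± 0.24 (unadjusted p = 0.000432, adjusted p = 0.242). In brain it read 112, 87.1 and 92.4 against 65.8, 55.7 and 69.3, at -0.61 ± 0.13 (unadjusted p = 0.00128, adjusted p = 0.170), which was the lowest brain fold change of any member tested in this fit. When each library was corrected for transcript length and GC content, Hyou1 in brain was at -0.40 and Sdf2l1 was lowest, at -0.66. Hspa13, another Hsp70 of the secretory route, was lower in liver alone by these limits, at 33.4, 44.1 and 35.6 against 24.6, 20.5 and 18.4 and -0.83 ± 0.19 (unadjusted p = 0.00134, adjusted p = 0.408), while its brain log2 fold change was 0.14 ± 0.15. The difference between the tissues was -0.98 ± 0.24 (unadjusted p = 0.00114, adjusted p = 0.436).

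Hsp90b1, the Hsp90 of the lumen, read 1121, 1652 and 1547 in liver control and 698, 753 and 759.7 in heat stress. All 3 heat stress values lay close together and below the lowest control, at a log2 fold change of -0.97 ± 0.21 (unadjusted p = 0.00102, adjusted p = 0.366). The brain showed 413, 496 and 446 against 447, 442 and 387, with overlap, at -0.086 ± 0.13. For this gene the difference between the tissues was -0.88 ± 0.25 (unadjusted p = 0.00408, adjusted p = 0.516), and 0.0264 after adjustment in DESeq2.

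The protein disulfide isomerases, which form and rearrange disulfide bonds, did not share a single pattern. Pdia4 was lower in both tissues, at 231, 195 and 199 against 107, 121 and 123 CPM in liver, or -0.83 ± 0.17 (unadjusted p = 0.000744, adjusted p = 0.305). Its brain levels were 42.0, 45.7 and 45.9 against 32.5, 30.1 and 31.2, at -0.51 ± 0.10 (unadjusted p = 0.000792, adjusted p = 0.170). Pdia6 read 332, 214 and 243 against 134, 201 and 176 in liver, at -0.63 ± 0.23 (unadjusted p = 0.0226, adjusted p = 0.799), where the highest heat stress library and the lowest control library lay close together. In brain Pdia6 read 96.5, 115 and 96.4 against 79.7, 76.6 and 78.8, at -0.39 ± 0.11 (unadjusted p = 0.00596, adjusted p = 0.170). Pdia3, which works on glycoproteins with calnexin and calreticulin, was at 529, 730.3 and 724 against 405, 364 and 425 in liver, at -0.73 ± 0.20 (unadjusted p = 0.00459, adjusted p = 0.474), and its brain value of -0.16 ± 0.10 did not reach an unadjusted p of 0.05 although the groups did not overlap. P4hb, the most abundant of them per length in liver and also a subunit of prolyl hydroxylase, gave a log2 fold change of -0.0031 ± 0.21 in liver and -0.10 ± 0.10 in brain, with overlapping groups in both tissues.

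Among the lectin chaperones and the enzyme Uggt1 that works with them, Calr and Uggt1 met the unadjusted limit in brain and not in liver. Calr read 415, 349 and 329.7 in brain control and 248, 233 and 257 in brain heat stress, at -0.57 ± 0.13 (unadjusted p = 0.00172, adjusted p = 0.170). In liver its groups overlapped, at -0.47 ± 0.25 with an unadjusted p of 0.0861. Uggt1, the sensor that sends unfolded glycoproteins back for another round, likewise read 67.4, 49.3 and 49.9 against 39.7, 33.0 and 39.5 in brain, at -0.57 ± 0.15 (unadjusted p = 0.00394, adjusted p = 0.170), and -0.27 ± 0.19 in liver with overlap. Canx showed log2 fold changes of -0.30 ± 0.18 in liver and -0.052 ± 0.12 in brain, neither with an unadjusted p under 0.05. The interaction test gave unadjusted p-values above 0.05 for Calr and Uggt1, so a difference between the tissues was not shown for either.

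Of the J proteins that direct BiP to its clients, Dnajb11 read 120.3, 129.8 and 119 against 74.8, 68.7 and 93.5 in liver, at -0.64 ± 0.18 (unadjusted p = 0.00511, adjusted p = 0.499), and 51.4, 49.1 and 50.1 against 42.2, 40.6 and 42.6 in brain, at -0.26 ± 0.10 (unadjusted p = 0.0237, adjusted p = 0.200). Dnajc3, which also restrains PERK, read 234, 295 and 275 against 196, 164 and 194 in liver, at -0.54 ± 0.18 (unadjusted p = 0.0154, adjusted p = 0.743), and its brain value was -0.20 ± 0.11. Dnajb9, a strong target of spliced Xbp1, went the other way in brain, at 0.29 ± 0.13 with an unadjusted p of 0.0479 and overlapping groups, and turned to -0.049 when each library was corrected for transcript length and GC content. Its liver value was -0.11 ± 0.17. The exchange factor Sil1 gave 0.19 ± 0.26 in liver and 0.12 ± 0.11 in brain, with an unadjusted p above 0.05 in each.

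**Figure D2:**
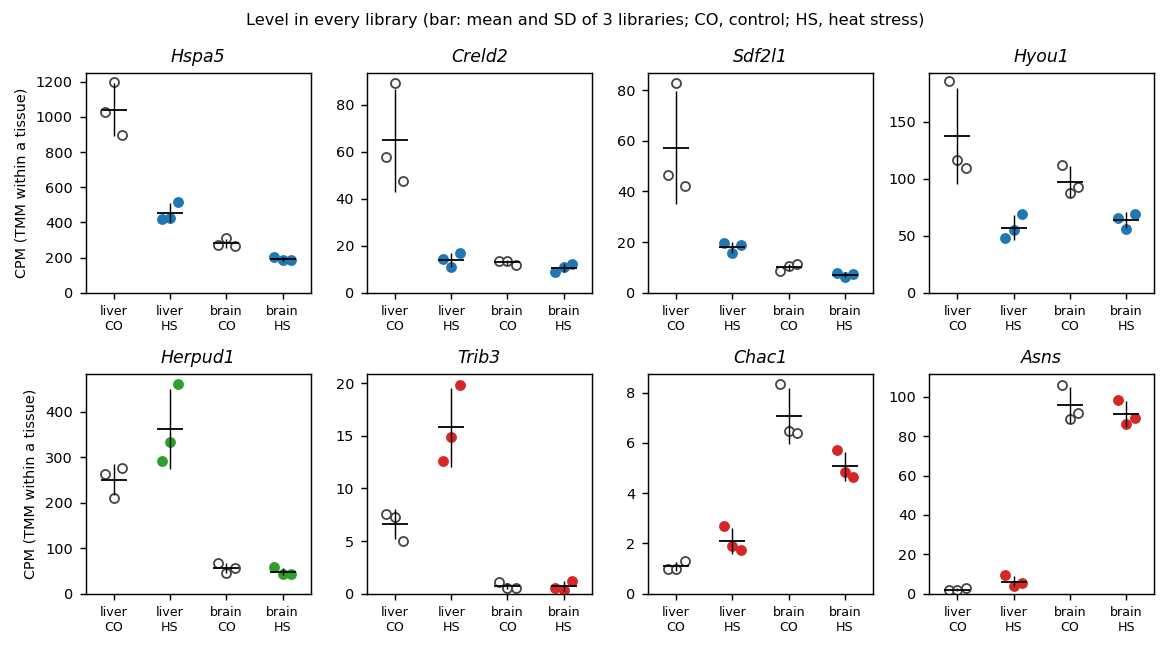
Panels show CPM on a linear axis from 0 for 4 chaperones in the upper row and for Herpud1, Trib3, Chac1 and Asns in the lower row, in liver and brain of control (CO) and heat stress (HS) mice. Points are single libraries, and the bar gives the mean and SD of 3 libraries. In liver the upper 4 genes are lower and the lower 4 higher in every heat stress library. Asns lies between 85.9 and 106 CPM in brain and between 1.63 and 9.23 in liver, with each tissue scaled on its own.

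The degradation genes divided. Derl3, a derlin of the channel that returns misfolded protein to the cytosol that secretory cells express strongly, was at 2.39, 8.40 and 2.05 CPM in liver control and 0.521, 0.836 and 1.03 in heat stress, from 37, 103 and 22 reads against 7, 12 and 13. The log2 fold change was -2.42 ± 0.59 (unadjusted p = 0.00213, adjusted p = 0.424), the lowest of all members, yet control replicate 2 alone held more reads than the other 5 libraries together. Without that library it was -1.48, and the groups still did not overlap. In brain Derl3 had between 6 and 13 reads per library and was not tested. Herpud1, a membrane protein that gathers the degradation complex, was the member of this group with higher liver values, at 264, 211 and 275 in control and 292, 332 and 461 under heat stress. Its log2 fold change was 0.53 ± 0.22 (unadjusted p = 0.0384, adjusted p = 0.846), and in brain it was -0.21 ± 0.17 with overlap. The difference between the tissues for Herpud1 was 0.72 ± 0.32 (unadjusted p = 0.0398, adjusted p = 0.516).

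Sel1l and Syvn1, the scaffold and the ubiquitin ligase of the main degradation complex, were lower in brain. Sel1l read 188, 155 and 158 against 119.9, 119 and 133 there, at -0.43 ± 0.12 (unadjusted p = 0.00550, adjusted p = 0.170), and DESeq2 gave an adjusted p of 0.0417. Syvn1 read 48.4, 32.5 and 37.7 against 24.9, 28.3 and 28.9, at -0.53 ± 0.16 (unadjusted p = 0.00746, adjusted p = 0.170). Their liver log2 fold changes were -0.36 ± 0.17 and -0.31 ± 0.23, with unadjusted p-values of 0.0546 and 0.202. The liver groups of Sel1l did not overlap, and those of Syvn1 did. The interaction test gave unadjusted p-values of 0.824 for Sel1l and 0.577 for Syvn1, so a difference between the tissues was not shown for either. Edem1, a lectin that marks glycoproteins for degradation, was separated in both tissues but with unadjusted p-values of 0.0606 in liver and 0.259 in brain. Derl1 and Derl2 had log2 fold changes between -0.21 and 0.10 over the tissues, none of them with an unadjusted p under 0.05.

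None of the 4 sensor genes met an unadjusted p of 0.05 in liver. Xbp1, whose messenger RNA is spliced by IRE1 to give an active factor, read 247, 266 and 227 in liver control and 258, 201 and 288 in heat stress, at 0.015 ± 0.20. The sign of that value turned with the scaling and with single libraries, and gene counts do not separate spliced from unspliced Xbp1. In brain Xbp1 read 80.7, 87.1 and 81.1 against 74.0, 76.3 and 73.2, without overlap but with an unadjusted p of 0.142. Atf6, the sensor that is cut in the Golgi to give a factor, read 59.8, 55.5 and 66.1 against 52.3, 58.7 and 57.7 in liver and 101, 69.9 and 67.0 against 56.1, 48.5 and 69.3 in brain, where the groups overlapped at 67.0 and 69.3 CPM and the log2 fold change was -0.45 ± 0.19 (unadjusted p = 0.0373, adjusted p = 0.226). Ern1, the gene of IRE1, read 12.5, 6.85 and 12.7 against 6.48, 10.9 and 8.83 in liver and 6.51, 5.76 and 5.67 against 3.88, 4.39 and 5.10 in brain, the latter at -0.43 ± 0.20 with an unadjusted p of 0.0654. Eif2ak3, the gene of PERK, read 11.5, 7.91 and 9.41 against 11.9, 9.69 and 11.99 in liver, at 0.22 ± 0.21. In brain it read 32.6, 26.4 and 32.5 against 24.6, 23.4 and 25.1, without overlap, at -0.33 ± 0.12 (unadjusted p = 0.0262, adjusted p = 0.205).

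In the ATF4 arm 3 targets of the factor were higher in liver, and the factor's own transcript was not. Atf4, which is controlled mainly at translation, read 135, 169 and 123 in liver control and 117, 89.0 and 125 in heat stress, at -0.37 ± 0.20 with an unadjusted p of 0.100 and overlap. It was lower at an unadjusted p of 0.0255 with the length and GC correction, 0.0360 with all 12 libraries in a single fit and 0.00964 with the column suffix as a covariate. In brain it read 156, 126 and 138 against 119, 127 and 112, at -0.23 ± 0.12. Asns, asparagine synthetase, read 1.74, 1.63 and 2.89 CPM in liver control against 9.23, 3.83 and 5.44 in heat stress. Those values came from 27, 20 and 31 reads against 124, 55 and 69. The heat stress mean was 2.96 times the control mean, with a log2 fold change of 1.57 ± 0.38 (unadjusted p = 0.00205, adjusted p = 0.424). Over the omission of single libraries that fold change lay between 1.14 and 1.86. Trib3, a pseudokinase that restrains ATF4 and insulin signalling, read 7.62, 7.26 and 5.03 against 12.6, 14.9 and 19.9 in liver, at 1.24 ± 0.24 (unadjusted p = 0.000491, adjusted p = 0.251), and was the single member called higher by DESeq2, at an adjusted p of 0.00958. Chac1, an enzyme that degrades glutathione, read 0.968, 0.979 and 1.30 against 2.68, 1.88 and 1.74 in liver, or 15, 12 and 14 reads against 36, 27 and 22, at 0.96 ± 0.35 (unadjusted p = 0.0203, adjusted p = 0.779). These 3 genes were higher in each liver of the heat stress group than in any control liver.

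Brain did not show the same values for these genes. Asns read 106, 88.8 and 92.0 against 98.5, 85.9 and 89.1 there, with overlap, at -0.07 ± 0.11, and the difference of the liver and brain effects was 1.63 ± 0.38 (unadjusted p = 0.000790, adjusted p = 0.417), or 0.0238 after adjustment in DESeq2. Chac1 was lower in brain, at 8.36, 6.46 and 6.39 against 5.72, 4.84 and 4.63 and -0.48 ± 0.21 (unadjusted p = 0.0422, adjusted p = 0.236), so that its groups were apart in opposite directions in the 2 tissues. Its difference was 1.43 ± 0.37 (unadjusted p = 0.00184, adjusted p = 0.516). Trib3 had between 4 and 16 reads per brain library and was not tested there. Ddit3, the gene of the pro-apoptotic factor CHOP, read 7.75, 7.34 and 5.96 against 6.33, 4.39 and 7.81 in liver, at -0.19 ± 0.26 with overlap. In brain Ddit3 read 25.9, 27.4 and 24.9 against 32.9, 30.1 and 28.8, without overlap, at 0.23 ± 0.11 and an unadjusted p of 0.0669.

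Among the genes of translocation and transport, Sec23b, a coat protein of vesicles that leave the endoplasmic reticulum, was lower in both tissues. It read 57.3, 42.5 and 32.6 against 25.1, 28.4 and 23.0 in liver, at -0.79 ± 0.22 (unadjusted p = 0.00487, adjusted p = 0.486), and 41.5, 39.7 and 37.0 against 33.4, 29.5 and 33.1 in brain, at -0.30 ± 0.11 (unadjusted p = 0.0224, adjusted p = 0.196). Ssr1, a subunit of the complex beside the channel, read 136, 169.7 and 170.2 against 127, 102 and 102 in liver, at -0.52 ± 0.19 (unadjusted p = 0.0185, adjusted p = 0.779), and 0.012 ± 0.11 in brain. Sec61a1, the channel itself, was lower in brain, at 70.9, 56.5 and 60.2 against 47.0, 49.4 and 46.2 and -0.40 ± 0.12 (unadjusted p = 0.00765, adjusted p = 0.170), and overlapped in liver at -0.22 ± 0.20. Sec61b, its small subunit, was higher in brain at 0.49 ± 0.18 with an unadjusted p of 0.0226, although its groups overlapped, and stood at -0.24 ± 0.22 in liver.

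**Figure D3:**
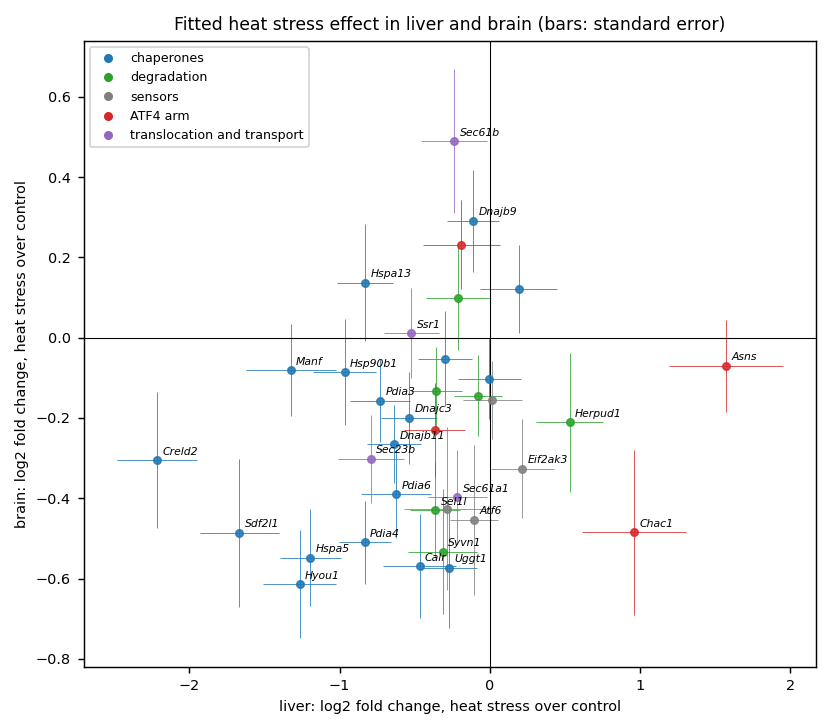
Each point is 1 of the 36 members tested in both tissues, placed at its fitted log2 fold change in liver (horizontal) and brain (vertical), with standard errors as bars and the role as colour. Names are given where the unadjusted p was under 0.05 in at least 1 tissue. Most chaperones lie left of 0 and below 0, and Chac1, Asns and Herpud1 lie right of 0. The liver axis spans a wider range than the brain axis.

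By the unadjusted limit 7 members were lower in both tissues: Hspa5, Pdia4, Pdia6, Sdf2l1, Hyou1, Dnajb11 and Sec23b. Of all 11322 genes tested in both tissues 0.291% were so. Another 7 were lower in liver and did not reach the limit in brain, namely Hsp90b1, Pdia3, Creld2, Manf, Dnajc3, Hspa13 and Ssr1, and 7 did so in brain but not in liver, namely Calr, Uggt1, Syvn1, Sel1l, Atf6, Eif2ak3 and Sec61a1, where 2.31% and 9.56% of those genes were. The omission of at least 1 single library took Pdia6, Dnajc3, Herpud1, Chac1 and Ssr1 above the unadjusted limit of p in liver, and Sdf2l1, Dnajb9, Dnajb11, Atf6, Eif2ak3, Chac1, Sec61b and Sec23b in brain. With the correction for length and GC content Hsp90b1, Pdia3, Creld2, Dnajc3 and Atf4 were lower in brain too (unadjusted p of 0.0308, 0.0205, 0.0264, 0.00475 and 0.0422), while Dnajb9, Atf6 and Eif2ak3 no longer met the limit there (0.598, 0.0579 and 0.134). In liver the same correction added Calr, Syvn1, Sel1l, Edem1 and Atf4 as lower (0.0424, 0.0119, 0.0356, 0.0484 and 0.0255) and took away Herpud1 as higher (0.0545). With the muscle score Calr, Uggt1, Syvn1, Sel1l and Edem1 were lower in liver (0.0225, 0.0448, 0.0487, 0.0299 and 0.0359). DESeq2 added Calr, Sel1l and Edem1 as lower in liver and took away Chac1 in both tissues and Dnajb9 in brain. A single fit of all 12 libraries added Sel1l, Edem1 and Atf4 as lower in liver and took away Pdia6, Sdf2l1, Dnajb9, Dnajb11, Eif2ak3, Chac1 and Sec23b in brain, and the suffix covariate added Atf4 and Sec61b as lower in liver. The sorting of members by tissue thus depends on the processing. The test of the difference itself, liver effect minus brain effect, gave 10 members below 0 and 4 above 0 at an unadjusted p under 0.05, where 5.91% and 3.73% of 15824 genes lay so. The 4 above 0 were Herpud1, Trib3, Chac1 and Asns. Trib3, and Derl3 among the 10 below 0, did not pass the filter in brain alone. They had 4 to 16 and 6 to 13 reads per brain library, so no difference between the tissues is read from these 2 members. In edgeR 0 members passed an adjusted p of 0.05 for the difference, and 0.00632% of genes did. DESeq2 called 3 members, Creld2, Hsp90b1 and Asns, where it called 0.330% of genes. Libraries of the same mice may stand on both sides of this difference, and their pairing was not stated.

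The liver values were set beside the promoter letters shown earlier, as a description without a test. All 9 members with ERSE had a log2 fold change below 0 in liver, 6 of them at an unadjusted p under 0.05, with a median of -0.63 and a range from -2.42 to -0.30. Below 0 were also 31 of all 38 members, 17 of the 18 chaperones and 5927 of 12296 genes. The 4 members with the ATF4 composite site were the same 4 genes that were higher in liver, with a median of 1.10. In brain 8 of 8 tested ERSE members were below 0, 4 of them at an unadjusted p under 0.05, and so were 3 of 3 tested members with the composite site, Chac1 among them at that limit. Below 0 in brain were also 29 of 36 members and 7449 of 14806 genes. At that limit 15 of the 36 members and 10.05% of genes were lower in brain. Herpud1 carried the composite site together with ERSE-II, and Dnajb11, the other member with ERSE-II, was lower. Outside the members the counts were small. Of 9 other ERSE genes tested in liver 1 was lower and 0 were higher at that limit. Of 270 other genes with the composite site 8 were lower and 4 higher in liver, where 2.87% and 2.97% of all genes were. In brain 9 of 10 other ERSE genes were below 0, 3 of them at that limit, with a median of -0.38 beside -0.35 for the ERSE members. Of 308 other genes with the composite site 34 were lower and 25 higher in brain. Of the members lower in liver, Sdf2l1, Pdia3, Pdia4, Dnajb11, Ssr1 and Sec23b had no ERSE in their windows, and Manf, Hyou1 and Hspa13 had no window in the table.

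**Figure D4:**
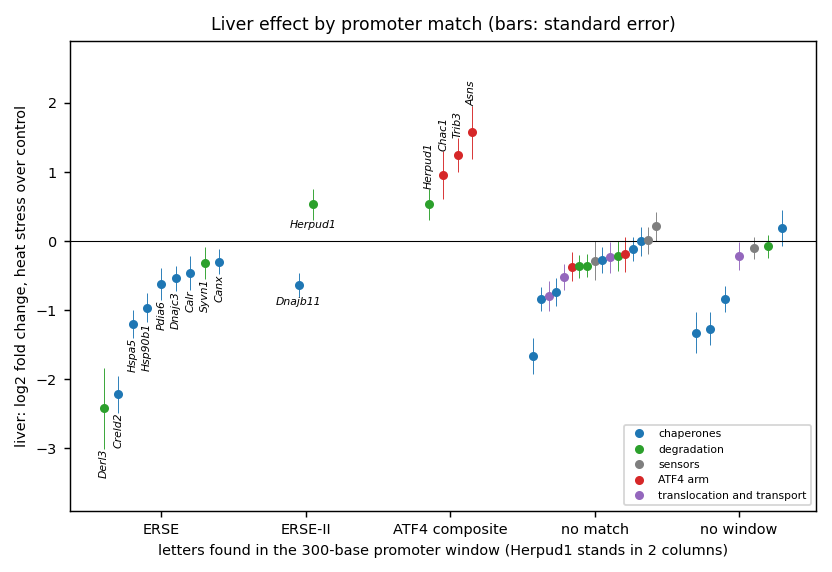
Points are members, placed by the letters found in their promoter windows and at their liver log2 fold change, with the standard error as bar and the role as colour. Herpud1 stands under both ERSE-II and the ATF4 composite site. The 9 genes with ERSE lie below 0 and the 4 with the composite site above 0, and genes with neither match lie on both sides of 0.

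Per kilobase of exon, which allows genes to be compared, P4hb was the most abundant member in liver control, followed by Hsp90b1, Calr, Hspa5 and Pdia3, at 794, 522, 389, 363 and 308 CPM per kilobase. These values stand on another scale than the CPM within each tissue used elsewhere here. In brain control the order began with Calr at 86.6, Hsp90b1 at 76.6 and Canx at 62.9. Chac1 was the least abundant in liver control at 0.973 and Trib3 in brain control at 0.235. On that scale the level in liver control was above that in brain control for 34 members, with P4hb at 27.1 times the brain level. It was below the brain level for Ddit3, Eif2ak3, Chac1 and Asns, and Asns was at 0.0468 of it. With the CPM within each tissue Canx, Dnajb9, Hspa13, Sel1l, Atf6 and Ssr1 were also below brain. In that CPM P4hb read 1534 in liver control and 123 in brain control, and Asns 2.09 and 95.7. Levels set across the tissues thus depend on the scaling.

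A wider list of the pathway was read in the same way. Of 162 further genes listed for folding, degradation, transport, regulation of the response and ATF4 targets, 154 were in the table. In liver 146 were tested, with 9 lower and 2 higher at an unadjusted p under 0.05 and a median log2 fold change of -0.11, beside 2.87% lower, 2.97% higher and a median of 0.011 over all genes. Fkbp14, a prolyl isomerase of the lumen, read 10.1, 10.8 and 12.1 against 5.73, 5.71 and 5.28, at -0.97 ± 0.19 (unadjusted p = 0.000546, adjusted p = 0.269). Cebpb, a factor that can pair with ATF4, was higher, at 71.6, 63.6 and 48.6 against 90.5, 136 and 135 and 0.97 ± 0.22 (unadjusted p = 0.00143, adjusted p = 0.408). The vesicle coat gene Sec24d (-0.51 ± 0.16), the mannosidase Edem3 (-0.52 ± 0.19), the signal receptor subunit Srprb (-0.48 ± 0.19), the cargo receptor Tmed9 (-0.41 ± 0.17) and the adaptor Nck1 (-0.43 ± 0.18) were the other non-members in liver with an unadjusted p under 0.05 and groups apart. Among 30 further ATF4 targets tested in liver 2 were higher and 1 lower, with a median log2 fold change of -0.13.

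In brain 149 of the further genes were tested, 17 of them lower and 14 higher, which is close to the 10.05% and 10.00% of all genes. Among ATF4 targets 8 of 32 were lower and 0 higher, against the same background, with Cbs, which makes cystathionine, at -0.49 ± 0.11 and the tRNA synthetase gene Iars at -0.55 ± 0.16. The 8 named by rank of p also held the translocation genes Sec61g (0.98 ± 0.26), Ssr4 (0.51 ± 0.15), Srp9 (0.57 ± 0.17) and Srp14 (0.55 ± 0.17) and the transport gene Sar1b (0.48 ± 0.14), all higher, and Sec31a (-0.49 ± 0.14), lower. In brain the fold change went with exon length over all genes. Of 3 equal classes of length, the shortest, up to 3.35 kb, had a median of 0.13 and 16.7% of genes higher at an unadjusted p under 0.05, and the longest had a median of -0.11 and 18.1% lower. Members of the longest class in brain had a median of -0.36 with 7 of 12 lower, and those of the shortest -0.18 with 5 of 16 lower and 2 higher. In liver the medians of the 3 classes were 0.042, 0.014 and -0.016. After a correction of each library for length and GC content the count of lower members in brain was 18, and 1 was higher.

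Signals of other tissues and conditions differed between the same libraries, and their part in the values above was not tested. Skeletal muscle markers summed to 539 CPM in liver control replicate 1 and 2876 in liver heat stress replicate 2, against 1.40 to 8.83 in the other 4 livers. Without both of these libraries edgeR called 9 members at an adjusted p under 0.05 (Creld2, Sdf2l1, Manf, Hspa5, Hsp90b1, Hyou1 and Hspa13 lower, Trib3 and Asns higher), and 0.662% of genes were called. A score of the muscle genes as a covariate gave 10 members and 0.545% of genes. Pancreatic acinar markers, whose cells are rich in Derl3, Creld2 and Sdf2l1, summed to 135 CPM in liver control replicate 2 and to between 33.2 and 79.0 in the other 5 livers, and 0 of the 11 markers were at 0 throughout. That library was the highest of the 3 controls for 14 of 38 members, among them Creld2, Sdf2l1, Manf and Derl3 but also Hspa5, Hsp90b1 and Pdia3, and the lowest for 12, among them P4hb, Calr, Pdia4 and Pdia6. Without it the log2 fold changes of Creld2, Sdf2l1, Manf and Derl3 were -1.91, -1.30, -1.03 and -1.48. Hepatocyte markers summed to between 86011 and 125560 CPM in control and 100370 and 130480 in heat stress livers.

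Markers of T and NK cells were at 4.0 to 7.46 CPM in control livers and 12.8 to 21.7 in heat stress livers, and at 5.75 to 7.68 CPM in control brains and 10.3 to 23.0 in heat stress brains. At an unadjusted p under 0.05, 4 of 7 tested markers were higher in liver and 2 of 2 in brain. Genes of the circadian clock also differed, with 5 of 13 higher and 2 lower in liver at an unadjusted p under 0.05, and 4 of 14 higher and 2 lower in brain. In liver Per1 read 20.5, 10.6 and 15.0 against 23.9, 36.8 and 48.2, and Arntl 3.68, 5.63 and 2.33 against 1.34, 2.16 and 0.946. A list of heat shock genes held mostly cytosolic chaperones and their partners, with the mitochondrial Hspd1 and Hspe1 and the factors Hsf1 and Hsf2. Of its tested genes 5 of 14 were lower and 0 higher in liver, and 4 of 15 lower and 1 higher in brain, at an unadjusted p under 0.05. Over all genes 2.87% were lower and 2.97% higher in liver, and 10.05% and 10.00% in brain. In liver Hsp90aa1 read 162, 221 and 205 in control and 66.9, 81.9 and 50.2 under heat stress, at -1.56 ± 0.23 (unadjusted p = 4.37e-05, adjusted p = 0.107). Hsph1 in liver read 37.3, 48.2 and 43.1 against 17.0, 14.2 and 18.5, at -1.37 ± 0.18 (unadjusted p = 2.20e-05, adjusted p = 0.0678). In brain, markers of the choroid plexus, a secretory epithelium, summed to 1265 to 2524 CPM in control and 265 to 1144 in heat stress. Of the 10 markers 6 were lower at an unadjusted p under 0.05. Ttr stood both on this list and on the hepatocyte list, which in brain summed to 1167 to 2328 against 231 to 1074 CPM. The choroid plexus sum may thus rest mostly on Ttr. Neuron markers summed to 8233 to 11732 in control brains and 8494 to 9086 in heat stress brains. The table's column names mark 1 liver control and 2 liver heat stress libraries with a suffix whose meaning is not given. With the suffix as a covariate, a fit chosen after seeing the data, edgeR called 3 members at an adjusted p under 0.05 (Creld2, Manf and Sdf2l1, all lower) and 0.0488% of genes. A suffix split leaves 1 library of a group on either side, so no test within it was made.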

How the data were processed

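Messenger RNA of liver and brain was sequenced in groups of 3 mice, control and heat stress. The authors deposited raw read counts per gene symbol for 25239 genes and 12 libraries, made from a stranded kit with trimming, alignment to mm10 and counting. Their methods name 2 routes of counting (Tophat2 with HTSeq, and HISAT2 2.2.1 with featureCounts of Subread 2.0.1), and neither strand usage nor the treatment of reads that fit several genes is given in the sources used here. The fold changes and p-values in the authors' DESeq2 1.22.2 tables were not used. No column of a single library was left unused (0 such columns).

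From the counts, each tissue was fitted in R 4.3.3 with edgeR 4.0.16 (quasi-likelihood test with robust estimates, TMM, filterByExpr set to at least 10 reads and at least 15 in total, Benjamini-Hochberg adjustment over all genes tested). The difference of the effects was an interaction contrast over 12 libraries. DESeq2 1.42.0, other scalings and filters, a length and GC correction with mgcv 1.9.3, a block by replicate number, a muscle score, the column suffix and the omission of single libraries were alternatives. Standard errors were obtained by dividing the log2 fold change by the root of the F statistic. Replicates of a group differed by more than sampling noise. Exon lengths were taken from the GENCODE M21 annotation (GRCm38, the same assembly as mm10). The procedures were tested on simulated counts. Library totals lay between 10466198 and 15609040.

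The members and all lists were chosen with earlier results of these data known. Values in every library are given for each tested member with an unadjusted p under 0.05 and groups without overlap in a tissue, for the 4 sensors, for the ATF4 arm and for Hspa5, and the other members by counts and ranges or by their fold change. Of other pathway genes, those meeting both conditions are named, at most 8 per tissue in order of p. Per1, Arntl, Hsp90aa1 and Hsph1 were named after their values were seen. Protein sequences were not analysed here.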

Additional observations from a re-analysis of the deposited data

Results flagged for a closer look

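Chac1 was lower in every brain and higher in every liver of the heat stress group than in any control of the same tissue. The log2 fold change in liver minus that in brain was 1.43, with an unadjusted p of 0.00184 and an adjusted p of 0.516 in edgeR's interaction test over 12 libraries. The liver side of this value rests on 12 to 36 reads per library and the brain side on 49 to 122. Over the omission of single libraries the difference lay between 1.23 and 1.58. The values within each tissue were less stable against the unadjusted limit of 0.05. The liver p was 0.0692 with DESeq2, 0.0600 without both muscle libraries, and 0.0643, 0.0698 and 0.117 without control replicate 1, control replicate 2 or heat stress replicate 1. The brain p was 0.0727 with DESeq2, 0.0590 with all 12 libraries in a single fit, and 0.165, 0.0970 and 0.114 without control replicate 1, heat stress replicate 2 or heat stress replicate 3.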

How the results depend on the processing

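In liver the number of members at an adjusted p under 0.05 was 0 with edgeR as described, given below with the share of all genes called. It was 1 with upper quartile scaling (0.0163%), 2 without the filter (0.0446%) and 3 with a length and GC correction (0.130%). All 12 libraries in a single fit gave 3 (0.0885%), and the column suffix as covariate, chosen after seeing the data, 3 (0.0488%). It was 9 without both muscle libraries (0.662%), 10 with the muscle score (0.545%) and 11 with DESeq2 (0.553%). Omitting single libraries gave 0 to 4 such members, with 4 without control replicate 1 (0.200%), and 2 to 4 higher ones at an unadjusted p, against 4. In brain DESeq2 gave 6 members at an adjusted p, and 9 lower ones at an unadjusted p were found in the fit of all 12 libraries, against 15. Omitting single brain libraries left 9 to 15 lower and 0 to 2 higher members, with 9 and 0 without heat stress replicate 2. The count of higher brain members, 2 as described, was 1 without the filter, with DESeq2, with the length and GC correction and with all 12 libraries. For the difference of the tissues DESeq2 gave 3 members at an adjusted p. Omissions there gave 0 to 1 at an adjusted p, 5 to 13 below 0 (against 10) and 2 to 5 above 0 (against 4), with 5 without brain control replicate 3 and 2 without brain control replicate 1, brain heat stress replicate 2, liver control replicate 2 or liver heat stress replicate 3.

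The sign of the liver value of Xbp1 turned to -0.00208 with DESeq2's size factors, -0.00499 with DESeq2, -0.0646 with the length and GC correction, -0.00894 with all 12 libraries and -0.0972 with the suffix, and lay between -0.114 and 0.148 over omissions. Ddit3 in liver was 0.0712 without both muscle libraries and -0.406 to 0.00631 over omissions. Ssr1 in brain was -0.00191 without the filter and -0.0465 to 0.0656 over omissions, and Asns in brain -0.136 to 0.0116. The cause of these shifts was not tested. Replicate numbers do not pair the mice: same-numbered control and heat stress libraries correlated in their deviations at -0.289, 0.19 and -0.2 in brain and at -0.584, -0.509 and -0.089 in liver. Brain and liver libraries of the same number correlated at 0.196, 0.162 and 0.079 in control, where each library correlated best with its own number, and at 0.026, -0.101 and 0.012 in heat stress, so whether the numbers mark the same mouse was not shown. With the replicate block 2 liver members were higher at an unadjusted p (against 4) and 1 brain member (against 2). Depth limits Derl3, Chac1 and Asns in liver and Derl3 and Trib3 in brain. An omission that leaves 2 mice in a group assumes that they vary like the others.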
